A study of Mus musculus with 12 samples.

Results

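A cytosine followed by C or T on its own strand (CpC or CpT) is rarely methylated in mammalian cells, and 1103 such cytosines on autosomes were described here. The context was read from the mm9 genome at each deposited position, and a cytosine was kept where every one of the 12 samples gave it 10 or more read-outs. These 1103 cytosines, 509 CpC and 594 CpT, were found among 2428 genomic cytosines that passed the same minimum in any context and on any chromosome. They lay in 12 loci, 589 on the plus and 514 on the minus strand, and both strands were covered at every locus. A further 162 autosomal CpC and CpT cytosines were covered in at least 1 sample and left out, 139 of them in 3 loci where no cytosine reached the minimum in all samples.

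The samples were mouse embryonic stem cells cultured with serum and LIF. Parental v6.5 cells, whose genotype is labelled wild-type although the titles of these samples also carry the word knock-down, were compared with Tet2kd cells, in which an shRNA expressed from a pSUPER-puro plasmid had been introduced by electroporation and clones had been picked after puromycin selection. The protocol names plasmids against Tet1 and against Tet2, and how many clones the 3 Tet2kd replicates stand for was not given. The files hold no RNA, so the knockdown was not checked here. The DNA of each replicate was divided and measured by bisulphite sequencing (BS-seq) and by oxidative bisulphite sequencing (oxBS-seq), giving 4 groups of 3 samples.

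In mammals, DNMT1 copies methylation at CpG dinucleotides after replication. Methylation outside CpG is placed by the de novo enzymes DNMT3A and DNMT3B, mainly at CpA, and is known from embryonic stem cells, oocytes and neurons. Bisulphite turns unmodified cytosine into uracil, which is read as T, while 5-methylcytosine and 5-hydroxymethylcytosine stay C. In oxBS-seq, 5-hydroxymethylcytosine is oxidized first and also reads as T. TET2 is one of the enzymes that oxidize 5-methylcytosine. The C share used below is the number of C read-outs divided by the sum of C and T read-outs, in percent. It counts methylated cytosines together with unconverted cytosines and read errors. Cytosines of CpC and CpT are often used as a measure of incomplete conversion, because they are rarely methylated.

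The cytosines with the highest shares are shown first, since they stood farthest from the background. The mean over the 12 samples passed 5% at 7 of the 1103 cytosines, and 6 of the 7 lay in 2 runs made only of C and T, at chr16:92644695-92644716 and chr8:120115768-120115790. The runs are printed with 1 or 2 further bases at their ends, in the direction of the strand that was read, from mm9, with the cytosines above 5% in capitals.
Runx1 intron, chr16:92644695-92644717, plus strand: tctttcccCtccCtCtcccttca
Plcg2 intron, chr8:120115767-120115792, plus strand: gttcctttCtcctttCcCtcttttat
Zbtb40 intron, chr4:136547386-136547406, minus strand: actacaacaaCTGcctcaggc
In the Zbtb40 line the capitals mark the cytosine and the 2 bases after it. The plus strand at Runx1 is the strand opposite to the gene, which is transcribed from the minus strand, whereas at Plcg2 and Zbtb40 the printed strand has the gene's own direction.

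Depth set how small a share could be seen. Within a sample, these cytosines were covered by a median of 576 to 3578 read-outs, and the median over all cytosines and samples was 1913. A count of 0 at that median allows a share of up to 0.157% (3 read-outs), and at the lowest coverage of 11 read-outs it allows up to 27.3%. A total of 4 C read-outs at the median coverage had a 95% Wilson interval of 0.0813% to 0.536%. The reads came from PCR products without molecular identifiers and are not independent molecules, so intervals and limits cover counting error only. A stretch of unmethylated lambda phage DNA in every library served as control. It was recognised as the covered lambda stretch with a low C share, and its 26 cytosines averaged 0.141% to 0.401% C in the 12 samples, with a mean of 0.218%.

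Most CpC and CpT cytosines had C shares at the level of that control. The median of the 1103 means was 0.221%, with quartiles of 0.143% and 0.321%, against a median of 0.217% among the 26 control cytosines. The mean share was below 1% at 1055 cytosines (95.6%), and 22 had no C read-out in any sample. The mean of all 1103 was 0.391%, pulled above the median by few cytosines. The 7 above 5% supplied 22.4% of the sum of the means, and the 48 above 1% supplied 42.8%. Between these bounds, 23 cytosines lay from 1% to 2% and 18 from 2% to 5%.

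The mean over cytosines was above the control in 11 of 12 samples and in all 6 replicates when both assays were averaged (difference 0.173 ± 0.0726 percentage points, SD, n = 6 replicates; exact sign-flip permutation test, two-sided, p = 0.031, the smallest that 6 replicates allow). Without the 7 cytosines above 5% the difference was 0.0874 ± 0.0695 points (exact sign-flip permutation test, n = 6, p = 0.0625). The median over cytosines within each sample, in contrast, fell short of the mean of the control (difference -0.0536 points; exact sign-flip permutation test, n = 6, p = 0.031). Unlike the 0.221% above, these medians were not taken over means of samples. They ran from 0.0872% to 0.231%. The lowest was that of v6.5 oxBS-seq replicate 2, which had the lowest median coverage (576 read-outs). The part of depth in the lower medians was not tested.

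Shares also differed with position in the covered stretch. The 209 cytosines within 25 bp of the outermost tested cytosine of their locus and strand had a median of 0.0142%, and the 894 farther inside had a median of 0.249%. Within 10 bp of the end, the highest mean share among 101 cytosines was 0.124%. The loci were amplified with locus-specific primers, and bases under a primer come from the primer and not from the cells. Which cytosines lay under primers was not determined here. Restricted to the 894 inner cytosines, the median within a sample differed from the median of the control by -0.00407 ± 0.0575 points (SD, n = 6 replicates; exact sign-flip permutation test, p = 0.969), a difference smaller than its SD. This comparison changed both the cytosines and the control value, from mean to median, so the part of position alone was not separated. The mean of the same 894 was above the control in all 12 samples, by 0.25 ± 0.0765 points (SD, n = 6 replicates; exact sign-flip permutation test, p = 0.031).

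Among the 3 non-CpG contexts, the CpA cytosines stood apart. CpA, the preferred non-CpG target of the DNMT3 enzymes, averaged 1.11% over 591 autosomal cytosines with a median of 0.433%, and CpG averaged 68.5% over 304. In all 6 replicates CpA exceeded CpC and CpT together, by 0.716 ± 0.0980 percentage points (SD, n = 6; exact sign-flip permutation test, p = 0.031). The size of this gap depended on few cytosines, since it was 0.445 points without cytosines above 5% and 0.114 points between medians, while at 1000 or more read-outs it was 1.14 points. CpT averaged 0.50% (median 0.248%) and CpC 0.265% (median 0.196%). CpC was below CpT in all 6 replicates, by -0.235 ± 0.0368 points (SD, n = 6; exact sign-flip permutation test, p = 0.031). Most of this gap came from a single trinucleotide: without CTC, an alternative chosen after the values were seen, CpC minus CpT was -0.0350 points. Adjusted with the Benjamini-Hochberg method over the 5 main exact comparisons of sample means (2 between genotypes, 1 between assays and 2 between contexts), p was 0.0781 for each of the context comparisons, 0.167 and 0.25 for those between genotypes in BS-seq and oxBS-seq and 0.75 between assays. All other exact tests in this text, such as those against the control and on chromosome X, were not adjusted.

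**Figure D1:**
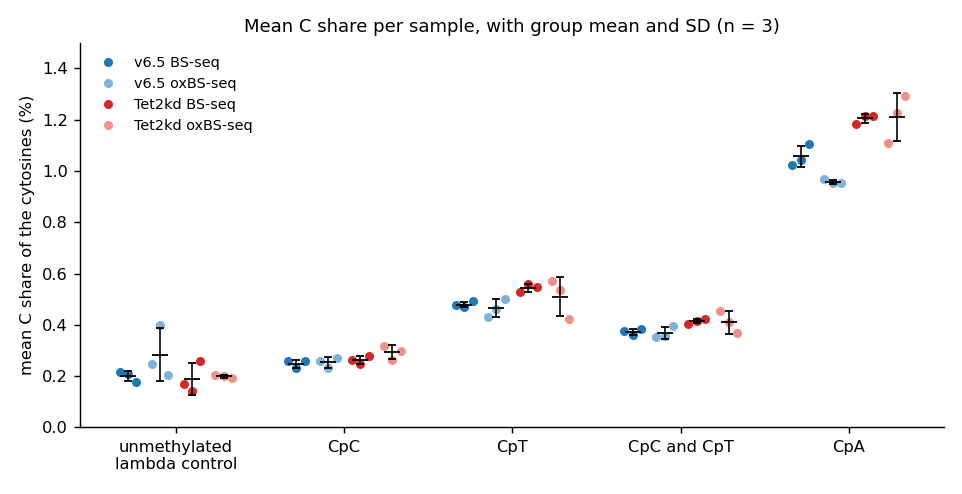
Mean C share (%) of the 26 unmethylated lambda control cytosines and of the CpC, CpT, combined and CpA cytosines, with a point for each sample, and the group mean with its SD (n = 3) in black. The combined CpC and CpT means ran from 0.352% to 0.455%, with CpC below CpT and CpA above both in every sample.

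The trinucleotide CTC held the highest shares. Its 157 members averaged 1.06% with a median of 0.313%, against 0.281% and 0.212% in the other 946. In each of the 12 samples CTC had the highest mean and the highest median of the 8 trinucleotides. CTC made up 14.2% of the 1103 cytosines but 27 of the 48 above 1% and 5 of the 7 above 5%. At 11 of 12 loci the median of the CTC cytosines was above that of the other cytosines. Outside the Runx1 and Plcg2 stretches printed above, the remaining 152 CTC cytosines still averaged 0.535%, and 22 of them were above 1%. The lowest trinucleotide was CCA, with a mean of 0.183% and no cytosine above 1% among 133. CCG, where the next cytosine is itself in a CpG, averaged 0.247% over 87 cytosines.

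The CTC pattern was noticed in these values, and chromosome X, which took no part in the set, gave cytosines that had not been used for it. There, 32 CTC cytosines averaged 0.741% and 223 other CpC and CpT cytosines 0.229%, all in 2 loci. Their medians were closer, at 0.256% and 0.200%. CTC had the highest mean of the trinucleotides in 10 of the 12 samples. The difference of means was 0.512 ± 0.185 percentage points and positive in 6 of 6 replicates (SD, n = 6; exact sign-flip permutation test, p = 0.031). Each replicate measured the same cytosines, so this test covers the spread between replicates only. It was 0.150 ± 0.0488 points without the 2 chromosome X cytosines above 5% (exact sign-flip permutation test, n = 6, p = 0.031). The samples, libraries and read processing were those of the autosomal values, and 2 loci do not show how far the difference holds elsewhere.

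Within CTC, cytosines preceded by TA or TG formed a subset with many raised values. The motifs TACTC and TGCTC, counted on the strand of the central cytosine, held 21 cytosines in 11 loci, with a mean of 1.20% and a median of 0.805%, and 10 of the 21 were above 1%. The 136 other CTC cytosines, which include those of the Runx1 and Plcg2 runs, had a mean of 1.03% and a median of 0.294%, and 17 of them were above 1%. With any base between T and CTC, 45 cytosines had a mean of 0.947% and a median of 0.586%. This split was chosen after the values were seen and was not tested. On chromosome X only 2 cytosines had these motifs, at 0.157% and 0.661%. The highest 5 are printed from mm9, with the motif in capitals and the measured cytosine as the third capital letter.
Klf3 locus, chr5:64987474-64987494, plus strand: acaagatgTGCTCtctgccag
Hsp90ab1, chr17:45706726-45706746, minus strand: cagggcatTGCTCttcattcc
Runx1, chr16:92644507-92644527, plus strand: gccgcagcTGCTCcaattcac
Igsf21, chr4:139783710-139783730, plus strand: ccagtattTGCTCtcatgcac
Plcg2, chr8:120115706-120115726, plus strand: tcagccagTACTCacactagc
Their mean shares were 3.16%, 2.79%, 2.60%, 2.37% and 2.29% in this order. Each varied widely between samples, for example from 0% to 11.2% at the Runx1 cytosine with a median coverage of 289.5 read-outs, and from 0.292% to 4.83% at the Hsp90ab1 cytosine with 2661.

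Length of the run of C and T around a cytosine was a further feature that the selection had not used. It was described after the values were seen and was not tested. In runs of 2 to 4 and of 5 to 9 pyrimidines the median shares were 0.213% (655 cytosines) and 0.218% (375). In runs of 10 to 14 it was 0.288% (45 cytosines in 10 runs). There the median was 0.859% over 10 CTC cytosines and 0.242% over the 35 others. In runs of 5 to 9 these medians were 0.287% and 0.204%, and in runs of 2 to 4 they were 0.297% and 0.209%. Only 3 runs had 15 or more, too few to describe a dependence on length. Their means lay between 0.264% and 7.32%, so that a long run was not raised in every case. The 22 bp run at Runx1 held 12 members with a mean of 7.32%, and the 23 bp run at Plcg2 held 9 with a mean of 4.05%. They contained 3 and 2 CTC trinucleotides. Together the Runx1 and Plcg2 runs held 16 of the 48 cytosines above 1%. Another 22 were CTC elsewhere, and 10 were neither.

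The loci otherwise shared a common level. Locus means ran from 0.210% at Letmd1 to 0.981% at Runx1, while locus medians ran only from 0.179% to 0.281%. By strand, the Runx1 plus strand averaged 1.79% (57 cytosines) and the Plcg2 plus strand 1.42% (34 cytosines), and the other 22 strands lay between 0.193% and 0.423%. In no sample did another strand exceed 0.637%, and in no sample was either of the Runx1 or Plcg2 plus strands below 1.06%. The opposite strands at the same loci averaged 0.251% (Runx1) and 0.421% (Plcg2). Median coverage was 179.5 read-outs on the Runx1 plus strand and 669.5 on the Plcg2 plus strand, against 478 and 6557.5 on the minus strands, and the part of depth in the difference was not tested.

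**Figure D2:**
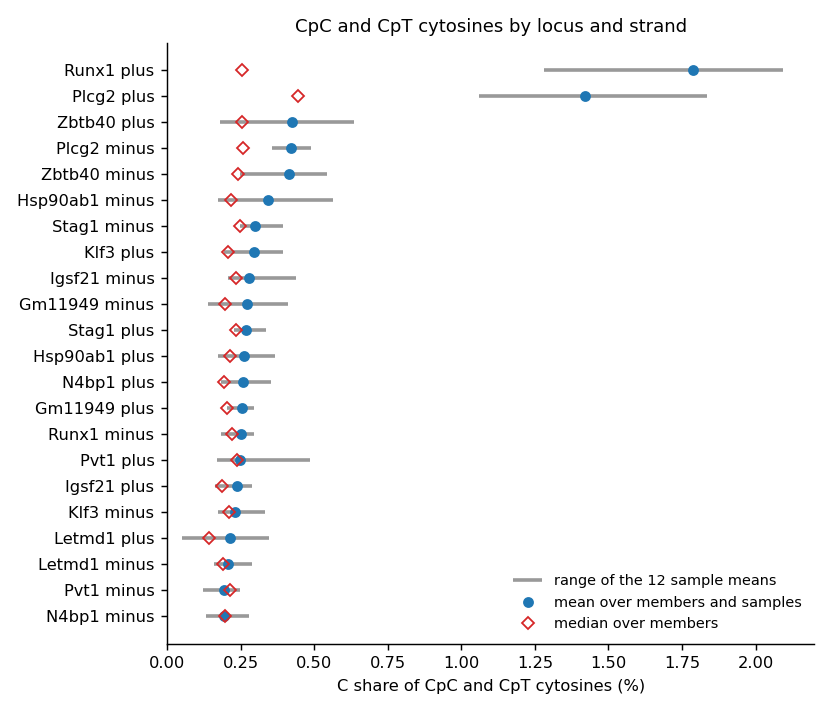
C share (%) of the CpC and CpT cytosines on each strand of 11 loci, as the mean (circle), the median over cytosines (open diamond) and the range of the 12 sample means (grey bar). The Runx1 and Plcg2 plus strands, at 1.79% and 1.42%, lie apart from the other 20 strands drawn. The Runx1 plus median of 0.254% lies among those of the others, while the Plcg2 plus median of 0.445% is the highest drawn.

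The 48 cytosines above 1% were spread over 10 of the 12 loci. Plcg2 held 13, Runx1 12, and Zbtb40 and Hsp90ab1 6 each. The Hsp90ab1 fragment (chr17:45706386-45706820), in a gene for the chaperone HSP90 beta, averaged 0.303% over 102 cytosines, and none of its cytosines passed 2.79%. Gm11949, a non-coding gene (chr11:3525591-3525968), and Igsf21, of the immunoglobulin superfamily (chr4:139783570-139783904), held 3 each with means of 0.264% and 0.255%. Stag1, a cohesin subunit (chr9:100498295-100498720, over a UTR exon), held 2 and averaged 0.280%. Letmd1 (chr15:100299982-100300461), the locus called Klf3 (chr5:64987289-64987661) and N4bp1 (chr8:89376778-89377095) held 1 each, with means of 0.210%, 0.264% and 0.234%. The fragment 562 bp from Pvt1, a long non-coding RNA gene (chr15:61868624-61868980), held 0, with a maximum of 0.658% and a mean of 0.222%, below its median of 0.234%.

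CpG means ran from 46.0% at Letmd1 to 93.4% at Zbtb40, while the medians of the inner CpC and CpT cytosines ran from 0.213% to 0.375%. Over the 12 loci, the median share of the inner CpC and CpT cytosines was correlated with the CpG mean at 0.512 (Pearson) and 0.497 (Spearman), both quantities being taken from the same libraries and fragments. With distance to the nearest CpG on the strand, the median of the inner cytosines went from 0.234% at 1 to 2 bp (142 cytosines) to 0.255% at 21 bp or more (170), with 0.248% to 0.253% in the bins between. The mean went up over the same 5 bins, from 0.269% through 0.322%, 0.437% and 0.482% to 0.810%, and the number above 1% was 1, 7, 11, 14 and 13. The Runx1 run lies in the last of these bins.

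In the Runx1 run the high shares stood at a few adjoining cytosines. RUNX1 is a transcription factor of blood development, and the fragment lies over a coding exon and the adjoining intron of its gene. From the 3 cytosines before it, with means of 0.664%, 2.12% and 2.69%, the share reached 8.37% at chr16:92644703, then 4.78% and 4.59% at 92644705 and 92644706, then 24.1% at 92644707 and 35.6% at 92644709. The next 2 cytosines gave 3.04% and 0.465%. A CpA cytosine 7 bp past the peak averaged 14.7% with a sample range of 0% to 35.7%. The nearest CpG lay 39 bp from the peak and averaged 36.3%.

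The share at 92644709 moved widely between replicates. In v6.5 BS-seq it was 41.9%, 38.9% and 36.8%, and in v6.5 oxBS-seq it was 6.06%, 35.3% and 42.6%. In Tet2kd BS-seq it was 50.8%, 61.5% and 30.6%, and in Tet2kd oxBS-seq it was 42.6%, 31.3% and 8.62%. The lowest sample was v6.5 oxBS-seq replicate 1, and the groups overlapped in both assays. These shares rest on 36 to 464 read-outs, and the Wilson interval of the thinnest sample, v6.5 BS-seq replicate 2, was 24.8% to 55.1%. At 92644707 v6.5 gave 16.5%, 41.7% and 14.7% in BS-seq and 37.2%, 29.0% and 8.82% in oxBS-seq. Tet2kd gave 27.7%, 12.1% and 28.7% in BS-seq and 17.9%, 40.4% and 14.4% in oxBS-seq at this cytosine, so that the genotypes again overlapped. At 92644703 v6.5 gave 15.2%, 10.8% and 12.6% in BS-seq and 3.02%, 2.90% and 26.1% in oxBS-seq, and Tet2kd gave 7.58%, 0.901% and 9.01% in BS-seq and 4.92%, 1.63% and 5.77% in oxBS-seq. Here every Tet2kd sample was below every v6.5 sample in BS-seq, with single samples of 1 C read-out among 111 and 4 among 37.

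The Plcg2 run had a similar shape at greater depth. PLCG2 is a phospholipase C that acts downstream of immune receptors, and the fragment lies in an intron. Over 9 cytosines the share went from 0.358% and 0.676% to 5.10% at chr8:120115775, 3.10% and 3.74% at the following 2, 6.70% at 120115782, 4.08% at 120115783 and 11.2% at 120115784, and was 1.46% at the last cytosine of the run. At 120115784 v6.5 gave 8.99%, 8.36% and 11.4% in BS-seq and 10.7%, 10.6% and 6.70% in oxBS-seq. Tet2kd gave 8.49%, 16.3% and 12.8% in BS-seq and 9.48%, 22.4% and 8.64% in oxBS-seq. All 12 samples were therefore above 5% at this cytosine, with 452 to 1724 read-outs each. Among the CpC and CpT cytosines described here, only the 2 Runx1 cytosines at 92644707 and 92644709 shared that property. High shares on this strand were not confined to the run. A CpA cytosine at 36 bp from 120115775 averaged 13.2%, with a sample range of 5.62% to 23.0%, and another at -55 bp averaged 5.83%.

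**Figure D3:**
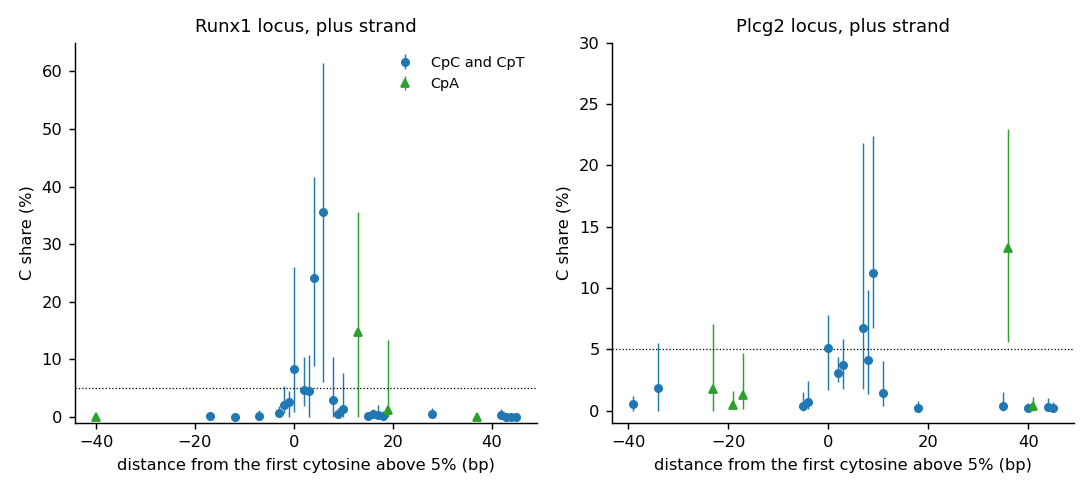
C share (%) of CpC and CpT cytosines (circles) and CpA cytosines (triangles) on the plus strand around the pyrimidine runs of Runx1 and Plcg2, against distance in bp from the first cytosine with a mean above 5%. Points are means of the 12 samples, bars span the lowest to the highest sample and the dotted line is at 5%. The raised values, up to 35.6% and 11.2%, of the CpC and CpT cytosines sit within about 10 bp.

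The remaining Plcg2 cytosines above 5% were less even between samples. At 120115782, the only CpC cytosine of the 7, the share was 1.79% to 9.31% in 11 samples and 21.8% in Tet2kd oxBS-seq replicate 1. At 120115775 v6.5 gave 4.02%, 3.98% and 6.49% in BS-seq and 3.45%, 7.24% and 2.95% in oxBS-seq. Tet2kd gave 6.56%, 7.82% and 7.21% in BS-seq, each above every v6.5 sample, and 3.21%, 1.68% and 6.55% in oxBS-seq, where the groups overlapped. On the opposite strand of the same fragment, a CTC cytosine at 120115805, in a run of 11 pyrimidines, averaged 4.40% with a range of 3.12% to 6.52% at 2440 or more read-outs per sample, and was one of the 5 cytosines just below the 5% limit. The others just below were 92644705 (4.78%) and 92644706 (4.59%) in the Runx1 run, 120115783 (4.08%) in the Plcg2 run, and a CTG cytosine in a coding exon of Zbtb40, chr4:136547558 on the plus strand, with 4.42% at only 43 to 191 read-outs per sample.

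The Zbtb40 cytosine above 5%, chr4:136547396 on the minus strand, differed from the other 6 in context and depth. ZBTB40 is a zinc finger protein of the BTB family. The cytosine is a CTG in an intron, its run of pyrimidines is 2 bases long, and it had 2194 to 24908 read-outs per sample. In v6.5 the share was 2.83%, 2.32% and 4.40% in BS-seq and 3.95%, 5.6% and 5.03% in oxBS-seq. In Tet2kd it was 7.28%, 8.14% and 5.06% in BS-seq and 5.32%, 6.72% and 9.48% in oxBS-seq. Every Tet2kd sample was above every v6.5 sample in BS-seq, and the groups overlapped in oxBS-seq. The locus had the highest CpG mean of the 12, and the nearest CpG, 13 bp away, averaged 96.4%. Within 25 bp were 8 CpA cytosines, of which the highest averaged 21.4% at a distance of 18 bp, while the 9 other CpC and CpT cytosines in that window had a median of 0.299% and a maximum of 2.05%.

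**Figure D4:**
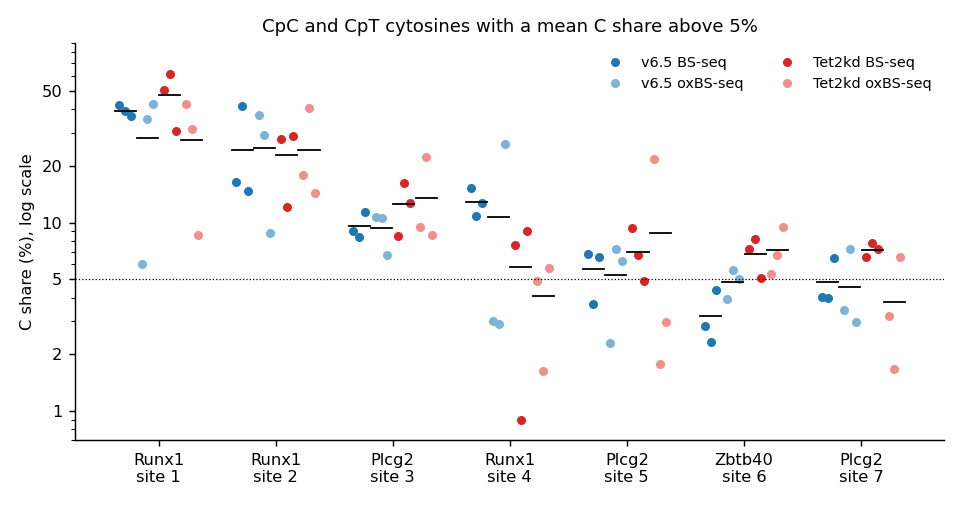
C share (%, log scale) of the 7 CpC and CpT cytosines with a mean above 5%, in order of their mean, with a point for each sample, a black line at each group mean (n = 3) and a dotted line at 5%. Sites 1, 2 and 4 are in the Runx1 run, sites 3, 5 and 7 in the Plcg2 run and site 6 is at Zbtb40, and in BS-seq the Tet2kd samples lie above the v6.5 samples at sites 6 and 7 and below them at site 4.

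The v6.5 line comes from a cross between mouse strains, and a strain difference that puts G after a cytosine would turn it into a CpG in part of the molecules. At the CpC cytosine 120115782 the following base is itself a measured cytosine, and its coverage as C or T was 1.000 of that of 120115782. At the 6 CpT cytosines the following T is not in the files, and whether these cells carry another base was not measured. Coverage of each of the 7 cytosines was 0.996 to 1.01 of that of its neighbouring cytosines. At the 6 CpT cytosines this ratio does not read the following base and could not show a G there. All 7 were at least 60 bp from the end of the covered stretch.

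The spread between replicates at these cytosines was far larger than counting error. The ratio of the observed to the binomial variance within groups was 6.77 to 36.9 at the 7 cytosines, with a median of 14.8. The median ratio was 1.45 over all 1103 cytosines, 1.80 at the lambda control and 11.3 at CpG cytosines. It rose with the share, from 0.474 at cytosines up to 0.1% to 10.7 at those from 1% to 5%.

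Between genotypes, the mean C share of the 1103 cytosines was slightly higher in Tet2kd cells. In BS-seq the v6.5 samples had 0.375%, 0.360% and 0.383% and the Tet2kd samples 0.405%, 0.415% and 0.423%, so that every Tet2kd sample was above every v6.5 sample. The difference was 0.0417 percentage points between group means of 0.373% ± 0.0119 and 0.414% ± 0.00893 (SD, n = 3 each; exact permutation test, two-sided, p = 0.1, the smallest that 3 against 3 allows). In oxBS-seq the v6.5 samples had 0.352%, 0.356% and 0.396% and the Tet2kd samples 0.455%, 0.410% and 0.366%, and the groups overlapped. The difference of 0.0422 points, between 0.368% ± 0.0242 and 0.410% ± 0.0441, was smaller than the SD of the Tet2kd samples (exact permutation test, n = 3 each, p = 0.2). It was 0.0200 points without Tet2kd replicate 1 and 0.0641 without Tet2kd replicate 3, 0.00945 between medians (p = 0.9 in the exact permutation test) and 0.126 with the control subtracted (p = 0.2). In the lambda control, Tet2kd minus v6.5 was -0.0116 points in BS-seq (exact permutation test, n = 3 each, p = 0.9) and -0.0842 points in oxBS-seq (p = 0.2). The SD of the control was 0.0624 in Tet2kd BS-seq and 0.104 in v6.5 oxBS-seq, where replicate 2 reached 0.401%. Both exceed the differences of the 1103 cytosines, so the control could not resolve shifts of that size.

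In autosomal CpA and CpG the difference had the same sign and was larger. CpA was higher in Tet2kd by 0.148 points in BS-seq and 0.252 points in oxBS-seq, and CpG by 10.8 and 12.4 points, with every Tet2kd sample above every v6.5 sample in each case (exact permutation tests, n = 3 each, p = 0.1). Within the set, Tet2kd minus v6.5 was 0.0648 points over the CpT cytosines in BS-seq (exact permutation test, n = 3 each, p = 0.1) and 0.0147 points over the CpC cytosines (p = 0.4). In oxBS-seq it was 0.0447 points for CpT (exact permutation test, n = 3 each, p = 0.5) and 0.0392 points for CpC (p = 0.2). On chromosome X the order was not the same. The CTC cytosines there differed by -0.209 points in BS-seq (exact permutation test, n = 3 each, p = 0.1), with every Tet2kd sample below every v6.5 sample. In oxBS-seq they differed by 0.154 points (exact permutation test, p = 0.9). The other CpC and CpT cytosines of chromosome X differed by -0.00553 points in BS-seq and 0.0349 points in oxBS-seq (exact permutation tests, p = 0.8 and p = 0.2).

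By locus, the mean was higher in Tet2kd at 11 of 12 loci in BS-seq and at 9 of 12 in oxBS-seq. Every Tet2kd sample was above every v6.5 sample at 3 loci in BS-seq (Gm11949, Hsp90ab1 and Plcg2) and at 3 in oxBS-seq (Pvt1, Plcg2 and Stag1), and at no locus was every Tet2kd sample below. Plcg2 was the only locus on both lists, with 0.771% ± 0.0942 in v6.5 and 0.950% ± 0.0995 in Tet2kd in BS-seq (SD, n = 3 each) and 0.790% ± 0.0468 against 0.893% ± 0.0555 in oxBS-seq. The number of loci changed with single replicates: in BS-seq it was 8 without Tet2kd replicate 1 and 5 without v6.5 replicate 1, and in oxBS-seq 6 without Tet2kd replicate 3 and 5 without v6.5 replicate 3.

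No single CpC or CpT cytosine passed the test between genotypes. The quasi-binomial regression, with Benjamini-Hochberg adjustment over all 2428 cytosines at 0.01, called 0 of 1103 in BS-seq, where it called 1.4% of all 2428 cytosines as higher in Tet2kd and 0.0% as lower. In oxBS-seq it called 0 of 1103 and 0.0% of all cytosines in either direction. At an unadjusted p under 0.05 it listed 27 of the 1103 (2.45%) in BS-seq, against 12.5% of all cytosines, and 36 (3.26%) in oxBS-seq, against 11%. With dispersions shrunk by limma the counts of calls were also 0, while Fisher's exact test on the pooled counts of each group, which takes replicates as identical, called 60 (5.44%) and 193 (17.5%), against 19.1% and 32.5% of all cytosines. At the 7 cytosines above 5%, of which 2 had every Tet2kd sample above and 1 every Tet2kd sample below v6.5 in BS-seq, the adjusted p of the regression was 0.389 or more in each comparison. Groups that did not overlap were also counted, without a test of the shares: every Tet2kd sample was above every v6.5 sample at 79 of 1103 (7.16%) in BS-seq, against 15.1% of all 2428 cytosines, and below at 29 (2.63%), against 2.39%. In oxBS-seq the counts were 40 (3.63%) above, against 10.8% of all, and 35 (3.17%) below, against 3.42%.

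Between assays, the mean share of CpC and CpT cytosines differed by less than the spread between replicates. The difference was -0.00433 ± 0.0354 percentage points (oxBS-seq minus BS-seq, SD, n = 6 replicates), and 2 replicates were higher and 4 lower in oxBS-seq (exact sign-flip permutation test, p = 0.75). The median over cytosines was lower in oxBS-seq in all 6 replicates, with a mean difference of -0.0488 points (exact sign-flip permutation test, n = 6, p = 0.031), whereas the lambda control was 0.0456 points higher in oxBS-seq (p = 0.281). In the site test the paired quasi-binomial regression called 0 of 1103 cytosines and 0.0% of all 2428 in either direction. At an unadjusted p under 0.05 it listed 67 (6.07%, against 11.1% of all cytosines), with shrunken dispersions it called 0, and Fisher's exact test on summed counts called 177 (16%, against 30.4% of all), of which 82 were higher and 95 lower in oxBS-seq.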

How the data were processed

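Targeted BS-seq and oxBS-seq of 12 samples were used. Per the labels, the authors aligned reads with Bismark (0.7.12) and Bowtie 2 to mm9, and they deposited, for each covered cytosine, counts of C and T read-outs without normalization. No genomic cytosine was listed with fewer than 10 read-outs. A percent column that the authors deposited beside the counts served as a check of them. Coordinates were made 1-based, and base, strand and context were read from the mm9 sequence, with genes from the GENCODE annotation of that build. Cytosines over 5000 bp apart were assigned to different loci, which were named after the nearest or the targeted gene. The locus called Klf3 lies 51211 bp from the nearest annotated gene.

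The share of each cytosine was averaged over cytosines within a sample, and samples were compared with exact permutation tests (3 against 3) or exact sign-flip tests over the 6 replicates, whose DNA was divided between assays. Each cytosine was tested with a quasi-binomial logistic regression (dispersion at least 1, F test, adjusted p under 0.01 over 2428 cytosines), tested beforehand on simulated data. Alternatives were Fisher's exact test, limma (3.58.1) shrinkage, other minimum coverages and leaving out replicates. Total genomic read-outs were 4505229 to 18096597 per sample. Same-numbered replicates of the 2 genotypes did not deviate together. Named were all loci but 1, which is not reported here by itself, the cytosines above 5%, the 5 next below and any called cytosine. Members and lists were chosen with earlier results of these data known. Python 3.11.15, numpy 2.4.6, pandas 2.3.3, scipy 1.17.1 and pysam 0.24.0 were used.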

Additional observations from a re-analysis of the deposited data

Results flagged for a closer look

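Shares above 5%, and so above the unmethylated lambda control, appeared at 3 CpC or CpT cytosines outside the 1103, since they lay on chromosome X or lacked the minimum coverage in 1 sample. The 2 on chromosome X entered the report only through the comparison of CTC with other cytosines there. The first, chr1:93674913 on the plus strand, is a CCG cytosine in an intergenic fragment 23125 bp from Twist2. It averaged 16.8% over the 11 samples that covered it, with a range of 10.8% to 24.4% and a median coverage of 124 read-outs. The following cytosine, in a CpG, averaged 72.9%, and its coverage was 0.379 of that at 93674913. Coverage fell further along the strand, to a median of 38 at 93674922 and 29.5 at 93674930, and the part of this fall in the value was not tested. The CTC cytosine 2 bp before, at 132 read-outs, averaged 0.491%.

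The other 2 were CTC cytosines on the minus strand in a coding exon of Gata1, a transcription factor of red blood cell development. At chrX:7539429 the mean was 5.92%, with a range of 0% to 17.0% at a median of 52.5 read-outs. At chrX:7539588 it was 6.43%, with a range of 0.0987% to 15.3% at a median of 2276 read-outs. Groups of 3 samples were too small for a search for outlying samples.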

How the results depend on the processing

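The genotype differences of the mean share kept their direction in all 17 alternatives in each assay, with p from 0.1 up. In BS-seq p went from 0.1 to 0.2 without cytosines above 5%, between medians and with the control subtracted. In oxBS-seq the difference was 0.00945 between medians and 0.126 with the control subtracted. Without single replicates they lay at 0.0352 to 0.0469 points (BS-seq) and 0.0200 to 0.0641 points (oxBS-seq). With the replicate number as a block, which the correlations of same-numbered samples (-0.0605 to 0.0462) did not call for, p was 0.25 in BS-seq and 0.5 in oxBS-seq, and 0 cytosines were called in either assay. The difference between assays changed sign: it was 0.00950 at 100 read-outs, 0.00768 at 1000, 0.0105 without cytosines above 5%, 0.000953 from summed read-outs and, added after the data were seen, 0.00711 without CTC and 0.00224 without the Runx1 and Plcg2 runs. With the control subtracted it was -0.0500 (exact sign-flip permutation test, p = 0.219). Leaving out replicates gave -0.0151 to 0.00606, and the difference passed the test only between medians (-0.0488, exact sign-flip permutation test, p = 0.031). CpC minus CpT was -0.243 to -0.224 and CpA minus CpC and CpT 0.687 to 0.732 without single replicates, where exact tests over 5 replicates cannot go below 0.0625. Loci with all Tet2kd samples above numbered 3 to 8 (BS-seq) and 3 to 6 (oxBS-seq) without single replicates. The number of cytosines above 5% was 6 to 8 without single replicates and 4 and 1 at minimums of 100 and 1000 read-outs, which leave fewer cytosines. It was 25 above 2% and 3 above 10%. Site calls were 0 in each leave-one-out (range 0 to 0) and under the genotype block, but these fits called 0 of all 2428 cytosines, CpG included, and say nothing about stability. They were also 0 in the other alternatives except Fisher's exact test (60, 193 and 177). With 3 samples a group, the exact tests cannot pass 0.05, and coverage under about 100 read-outs leaves shares of several percent undetectable.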
